A study of Mus musculus with 6 samples.

Results

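The interferon response and class I antigen presentation are described here through 42 genes in the retina of mice labelled Samd7 KO or wild type. The genes were chosen by symbol, all 42 were found among the 49997 genes of the deposited table, and 40 reached the level needed for a test. They are 4 sensors of nucleic acids, 4 transcription factors, 19 antiviral effectors, 6 genes of the ISG15 system, ubiquitin ligases and ADP-ribosyl transferases, and 9 genes of class I antigen presentation.

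Interferons are secreted proteins that warn cells of infection or damage. They bind receptors whose JAK kinases activate STAT proteins, which join IRF9 in a complex that binds the interferon-stimulated response element (ISRE) and switches on antiviral genes. The same signals raise class I antigen presentation: the immunoproteasome cuts proteins into peptides, the TAP transporter carries them into the endoplasmic reticulum, and class I heavy chains bound to beta-2 microglobulin show them to CD8 T cells. The neural retina is an immune-privileged tissue in which neurons carry little class I protein, and microglia and glia are known responders to interferon.

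Polyadenylated RNA was sequenced from 6 mouse retinas, 1 retina per library and all from males. Of these, 3 carried the genotype label Samd7 knockout (-10A) and were taken at postnatal day 31, and 3 carried the label c57Bl6/j wt and were taken at postnatal day 36. Samd7 is a photoreceptor protein of the Polycomb silencing machinery, and the study asked whether it keeps photoreceptor identity. Age and genotype cannot be told apart, and neither can strain, since a strain is named for the wild type alone. Whether each retina came from its own mouse is not stated, and p-values then measure only the spread between these retinas, which may be technical.

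The values, called normalized reads below, are the reads of each gene after division by the size factor of its library. Recovered depth ran from 44231112 to 62813549 reads per library. Samd7 itself had 57837, 45755 and 44932 normalized reads in KO-labelled retinas 1, 2 and 3 and 6349, 8141 and 8122 in wild type, which goes against a loss of its transcript (6.57-fold higher, limma adjusted p = 1.54e-08). For that reason every direction below is given for the retinas labelled Samd7 KO, shortened to KO-labelled retinas. Reads summed over a gene cannot show a change of a few bases in it. Rod markers were abundant in all 6 libraries, and 5 of 6 fell: their summed level was 2780351 to 3043359 normalized reads under the KO label and 4364799 to 4752404 in wild type. A fold is a ratio of group means, and a log2 fold change is on the log2(normalized reads + 1) scale. A gene is said to have risen or fallen at a limma-trend adjusted p under 0.05 over 20277 tested genes. By that rule 12% of all tested genes changed, 6.79% higher and 5.21% lower. The majority direction over all genes depended on scaling, with 56.6% of calls higher here, 71.2% with scaling to total reads and 48.5% with upper-quartile scaling.

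The ISRE is the sequence through which the activated complex reaches its targets, so the promoters are shown first. RefSeq promoter windows (GRCm38.p6) were matched for 30 of the 42 genes and searched, on both strands and over the 250 bases before each start site, for the ISRE core GAAA, any 2 bases, GAAA, which reads TTTC, any 2 bases, TTTC on the other strand. It was present in 9 of the 30 genes (30%) and in 3.46% of all 27025 genes with a window. The same windows were searched for another motif, the GAS core TTCNNNGAA, where N is any base. That core was present in 6 of the 30 genes (20%) and in 8.13% of all genes with a window. It was held by 4 of 20 genes that rose and 2 of 10 that did not pass. No test was made of these shares, and a match is not a measured binding site.

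The windows below were picked to show the layout of the sites in genes of different response. They lie directly before the RefSeq start of the gene, hold no GENCODE exon, run 5′ to 3′ toward the start site, and carry the ISRE core in capitals. Isg15 held 3 overlapping cores, Rsad2 1 core, and Stat2 1 core far from the start.
Isg15 (chr4:156200819-156201068, minus strand): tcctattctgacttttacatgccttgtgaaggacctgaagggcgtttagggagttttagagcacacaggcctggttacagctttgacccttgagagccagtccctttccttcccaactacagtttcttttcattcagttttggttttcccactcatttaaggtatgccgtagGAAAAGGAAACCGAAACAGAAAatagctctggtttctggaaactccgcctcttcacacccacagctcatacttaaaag
Rsad2 (chr12:26456453-26456702, minus strand): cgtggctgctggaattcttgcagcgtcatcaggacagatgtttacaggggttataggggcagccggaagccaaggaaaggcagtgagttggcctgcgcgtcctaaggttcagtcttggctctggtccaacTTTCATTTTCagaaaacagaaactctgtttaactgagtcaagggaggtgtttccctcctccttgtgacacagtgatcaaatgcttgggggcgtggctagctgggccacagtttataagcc
Stat2 (chr10:128270248-128270497, plus strand): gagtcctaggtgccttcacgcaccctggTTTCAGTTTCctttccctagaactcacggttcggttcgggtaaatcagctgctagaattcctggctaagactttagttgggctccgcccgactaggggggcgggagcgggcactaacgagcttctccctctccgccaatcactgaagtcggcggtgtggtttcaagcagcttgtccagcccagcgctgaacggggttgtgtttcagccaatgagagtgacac

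The paralogs Ifit3 and Ifit3b held 2 cores each. Their windows, which precede a start inside the RefSeq span of each gene, were 86.2% identical over 218 bases once shifted by 32 bases, and both kept 34 bases from the start of one core to the start of the next. For these and 4 other genes, 30 bases around the core nearest the start are given, with that core in capitals. The full windows of Ifit1 and B2m overlap GENCODE exons.
Ifit3 (chr19:34583397-34583426, plus strand): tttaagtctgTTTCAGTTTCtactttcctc
Ifit3b (chr19:34607793-34607822, plus strand): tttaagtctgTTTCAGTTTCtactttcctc
Ifit1 (chr19:34640794-34640823, plus strand): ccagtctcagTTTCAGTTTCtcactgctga
B2m (chr2:122147538-122147567, plus strand): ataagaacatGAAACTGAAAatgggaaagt
Bst2 (chr8:71537577-71537606, minus strand): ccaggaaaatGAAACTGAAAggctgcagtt
Oas1a (chr5:120907526-120907555, minus strand): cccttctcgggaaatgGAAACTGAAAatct

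Of 20 matched genes that rose, 6 held the ISRE core (Ifit1, Ifit3, Ifit3b, Rsad2, Isg15 and B2m), as did 3 of 10 that did not pass the test (Stat2, Oas1a and Bst2). The share was the same in both, 30%. In the plot of core positions the nearest cores lie between 14 bases (Oas1a) and 222 bases (Stat2) before the annotated start of the window. For Oas1a, as for Ifit3 and Ifit3b, that start lies inside the RefSeq span of the gene, and so does the core.

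**Figure D1:**
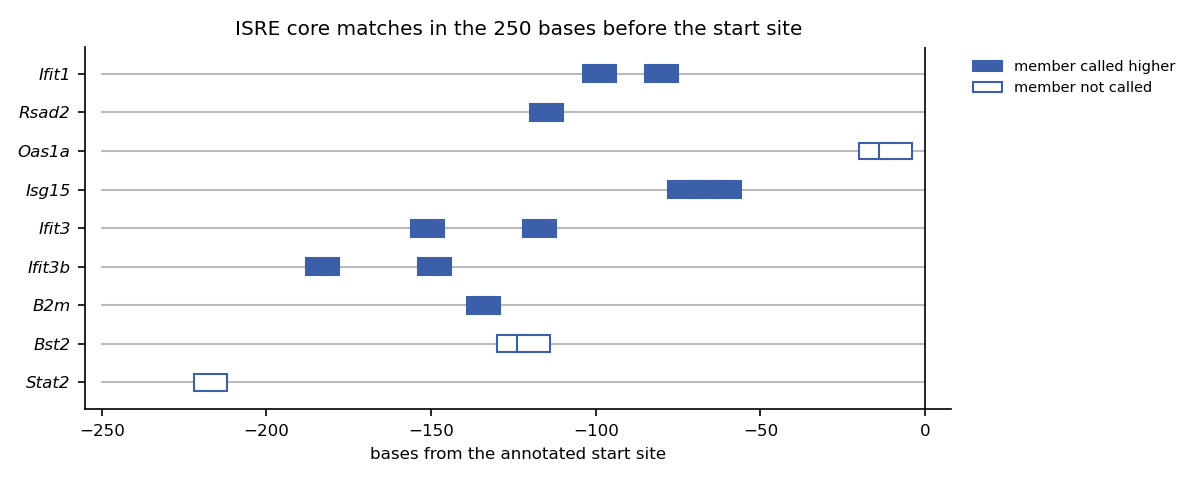
Position of each ISRE core match (boxes) in the 250 bases before the annotated start site of 9 genes, ordered by log2 fold change with the highest at the top; filled boxes are genes that rose and open boxes genes that did not pass the test. The nearest matches lie between 14 and 222 bases before the start, and both groups of genes hold them.

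As a set, the genes were higher in the KO-labelled retinas. In bulk RNA, more cells of a type and more RNA per cell cannot be told apart. Among the 40 tested, 26 rose, 14 did not pass and 0 fell, against 6.79% of all tested genes that rose. Among the 14, 2 had a lower level at an unadjusted limma p under 0.05, and DESeq2 called 2 lower (Irf7 and Ifi27). Since a gene that is low in wild type can reach the test through the KO label alone, the count was also taken over the 36 genes with at least 10 normalized reads in all 6 libraries. Of these, 23 rose and 0 fell, against 6.78% of all genes so filtered. In all, 37 of the 40 had a log2 fold change above 0, as had 50.3% of all tested genes. The median log2 fold change was 0.63 over the 40, beside 0.00 over all tested genes. The groups did not overlap in 34 of the 40, with the KO-labelled retinas above in 33 and below in 1 (Irf7), against 15.9% and 15.2% of all tested genes. With edgeR in place of limma, 26 of the 40 rose, against 7.05% of all tested genes. In the authors' deposited table, from the same libraries, 27 of the 40 were higher and 2 lower at an adjusted p under 0.05, against 8.29% and 6.03% of all genes there.

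The rises were mostly moderate. Of the 26, 12 rose by at least 1 on the log2 scale, as did 2.13% of all tested genes, and 14 rose by less. Calls for 14 of the 26 held in all 17 other ways the test was run, among them Irf9, Ifit1, Usp18, Oasl2, Rsad2 and H2-D1. Leaving out 1 library ended 10 of the calls, and those genes are identified below.

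**Figure D2:**
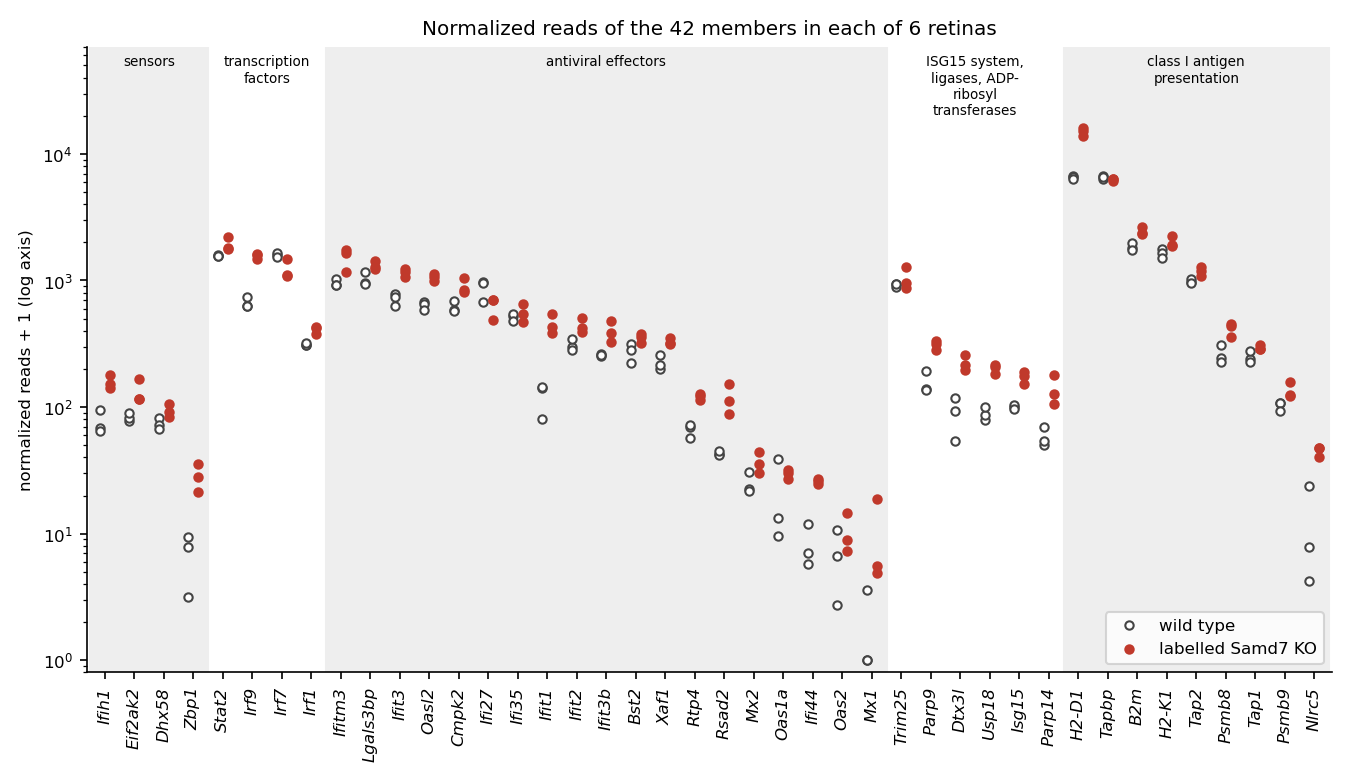
Normalized reads plus 1 on a log axis for each of the 42 genes in every library, open circles for the 3 wild-type retinas and red circles for the 3 KO-labelled retinas, grouped by role. The axis is not scaled by gene length, and the red circles lie above the open ones for 33 of the 40 tested genes.

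**Figure D3:**
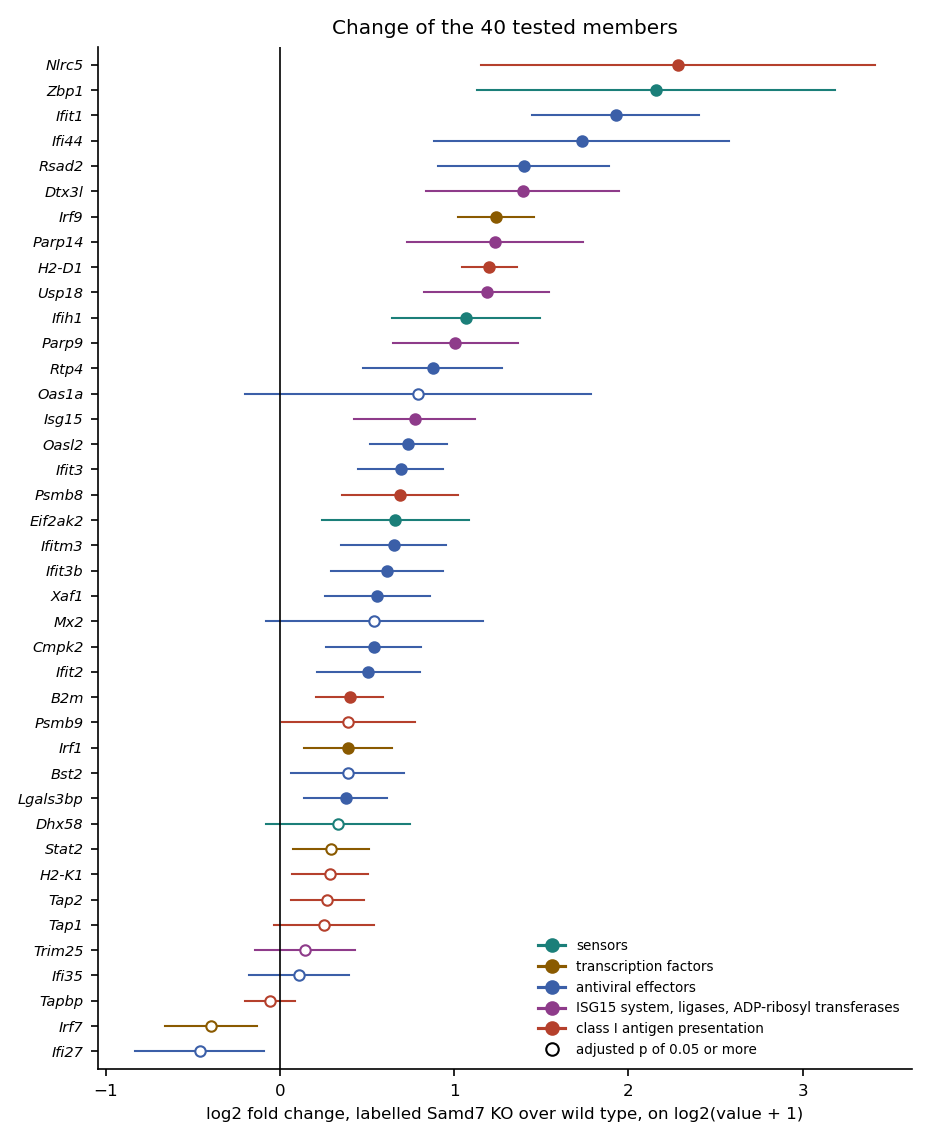
Log2 fold change (points) and 95% confidence limits from limma (lines) of the 40 tested genes, coloured by role; filled points passed an adjusted p of 0.05. The 26 filled points all lie to the right of 0, from 0.38 (Lgals3bp) to 2.29 (Nlrc5), and Tapbp, Irf7 and Ifi27 lie to the left.

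The sensors detect foreign or misplaced nucleic acid, and 3 of 4 rose. For this and the role counts below, the shares over all tested genes are 6.79% higher and 5.21% lower. Ifih1, which encodes the long double-stranded RNA sensor MDA5 (chromosome 2, 62595618 to 62646255), had 139.9, 177 and 151 normalized reads in KO-labelled retinas 1, 2 and 3. In wild-type retinas 1, 2 and 3 it had 66.7, 93.1 and 64.0. Every KO-labelled retina stood above every wild-type one, and the gene rose 2.09-fold (log2 fold change 1.07, SE 0.20, limma adjusted p = 0.00358).

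Zbp1, a sensor of left-handed nucleic acid that can trigger necroptosis (chromosome 2, 173206612 to 173218959), was low in wild type at 6.84, 2.16 and 8.47 normalized reads. The KO-labelled retinas held 27.1, 34.2 and 20.2, and Zbp1 rose 4.66-fold (limma adjusted p = 0.0110). Its wild-type values were all below the 10 reads of the filter, so it entered the test through the KO label alone. Eif2ak2, the kinase PKR that stops translation on double-stranded RNA, rose 1.61-fold (limma adjusted p = 0.0453). Retina 2 was the highest of its KO-labelled libraries, at 115, 167 and 115 against 77.0, 81.2 and 88.5. The Eif2ak2 call ended without any 1 library but KO-labelled retina 1 (limma adjusted p up to 0.142), with upper-quartile scaling (0.0554) and without a filter (0.0817). Dhx58, the RNA sensor LGP2, did not pass, with a log2 fold change of 0.33 (95% confidence limits -0.08 to 0.75).

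Of the 4 transcription factors, 2 rose. Irf9, the DNA-binding subunit of the ISRE complex (chromosome 14, 55603985 to 55610030), had 1612, 1592 and 1481 normalized reads in the KO-labelled retinas and 625, 735 and 628 in wild type. The spread within each group was small beside the gap, and Irf9 rose 2.36-fold (log2 fold change 1.24, SE 0.10, limma adjusted p = 5.91e-06). The GENCODE model of Irf9 overlaps that of Rnf31 on the same strand, and 0.55% of the 50-base stretches of Irf9 occur in other genes.

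Its partner Stat2 had 2219.8, 1779 and 1789.9 against 1589.7, 1547 and 1569 normalized reads. The groups did not overlap, but the difference did not pass (log2 fold change 0.29, 95% confidence limits 0.07 to 0.51, limma adjusted p = 0.0835). It passed with scaling to total reads (adjusted p = 0.0422), DESeq2 (0.0488) and limma-voom with sample quality weights (0.0353), shortened to weighted limma-voom. The ratio of Irf9 to Stat2 within each library was 0.726, 0.895 and 0.827 under the KO label and 0.393, 0.475 and 0.400 in wild type, a log2 difference of 0.95. The exact two-sided permutation p was 0.100, the smallest that 3 against 3 allows (0.12 adjusted over 6 such pairs, picked after their values were seen).

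Irf7, the factor that amplifies type I interferon production, stood lower at 1491, 1085 and 1099 against 1592, 1661 and 1529 normalized reads, and its groups did not overlap. It narrowly missed the threshold (log2 fold change -0.40, 95% confidence limits -0.66 to -0.13, limma adjusted p = 0.0563). It was lower at an adjusted p of 0.0434 with upper-quartile scaling, 0.0255 with DESeq2, 0.00633 with weighted limma-voom and 0.00241 without KO-labelled retina 1. Irf1, which drives class I and other genes after interferon gamma, rose 1.31-fold (mean ± SD of 408 ± 24.9 normalized reads under the KO label and 311 ± 5.71 in wild type, n = 3 and 3; limma adjusted p = 0.0472). Leaving out any 1 library ended that call (limma adjusted p up to 0.139), as did upper-quartile scaling (0.0704) and no filter (0.0692).

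Among antiviral effectors, 12 of 17 tested rose and 0 fell, with a median log2 fold change of 0.61. The Ifit genes encode proteins that bind foreign RNA and block its translation, and lie side by side on chromosome 19. Ifit1 (chromosome 19, 34640889 to 34650009) had 431, 543 and 384 normalized reads in the KO-labelled retinas and 139, 144 and 80.0 in wild type. Its rise was the largest of the 4 Ifit genes by ratio of means, 3.74-fold (log2 fold change 1.93, SE 0.22, limma adjusted p = 1.11e-04).

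Ifit3 had 1157, 1240.1 and 1068 against 779, 746 and 625 normalized reads and rose 1.61-fold (limma adjusted p = 0.00152). Ifit3b rose 1.55-fold (limma adjusted p = 0.0186) and Ifit2 rose 1.42-fold (limma adjusted p = 0.0310). Ifit3 and Ifit3b are near-copies: 51.2% of the 50-base stretches of the longest Ifit3 transcript also occur in Ifit3b, and 44.5% the other way, so reads could be split between them. The Ifit3b call ended without KO-labelled retina 3 or wild-type retina 2 or 3 (limma adjusted p up to 0.0724), and the Ifit2 call without KO-labelled retina 2 or wild-type retina 1 or 2 (up to 0.12).

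Rsad2 encodes viperin, which makes a chain-terminating nucleotide from CTP, and Cmpk2, beside it on chromosome 12 with 12665 bases between their RefSeq starts, supplies nucleotide triphosphates. Rsad2 had 150.1, 111 and 87.6 normalized reads in the KO-labelled retinas and 41.9, 41.1 and 44.2 in wild type. It rose 2.74-fold (log2 fold change 1.40, SE 0.23, limma adjusted p = 0.00152). Its wild-type values hardly varied. Cmpk2 rose 1.46-fold (limma adjusted p = 0.0157) and was lost when wild-type retina 2 or 3 was left out (up to 0.0839).

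The Oas family makes the second messenger that activates RNase L, and its members differed in level and in outcome. Oasl2, an OAS-like member, had 996, 1119.8 and 1062 normalized reads against 671, 652 and 585 and rose 1.67-fold (limma adjusted p = 4.88e-04). Oas1a did not pass, at 26.0, 29.0 and 30.8 against 37.6, 8.66 and 12.2. Wild-type retina 1 stood above every other library for that gene. Without that retina Oas1a was 2.74-fold higher (limma adjusted p = 0.0356). Without wild-type retina 2 it was 1.15-fold higher (limma adjusted p = 0.679), and without wild-type retina 3 1.235-fold (0.555). Of its 50-base stretches, 57.6% also occur in Oas1g. Oas2 was too low for the test, with 27 reads in all under the KO label and 17 in wild type. Scaled to total reads, its ratio was 1.81 (95% counting limits 0.949 and 3.53).

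The Mx GTPases trap viral components, and the reference C57BL/6J strain is known to carry a defective Mx1. Mx1 had 4, 17 and 4 reads in KO-labelled retinas 1, 2 and 3 and 3, 0 and 0 in wild type. Its ratio, scaled to total reads, was 9.48 (95% limits 2.89 and 49.0, counting error only), and KO-labelled retina 2 held most of the reads. Mx2 did not pass, with a log2 fold change of 0.54 (95% confidence limits -0.08 to 1.16).

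Of the membrane and secreted effectors, Ifitm3, which blocks virus entry at endosomes, rose 1.59-fold (mean ± SD of 1519 ± 306 normalized reads under the KO label and 953 ± 57.3 in wild type, n = 3 and 3; limma adjusted p = 0.00890). KO-labelled retina 2 was the lowest of its group for Ifitm3, at 1744, 1171 and 1644. Lgals3bp, a secreted glycoprotein, rose 1.30-fold (limma adjusted p = 0.0433), a call lost with upper-quartile scaling (0.0550) and without KO-labelled retina 3 or wild-type retina 2 or 3 (up to 0.199). Bst2, the tether that holds budding virus, had 357, 322 and 377 against 311, 279 and 221 and did not pass (log2 fold change 0.39, 95% confidence limits 0.07 to 0.71). With weighted limma-voom the log2 fold change was 0.56 and Bst2 passed (adjusted p = 0.00866).

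Ifi44, an antiviral protein, had 23.7, 25.9 and 25.0 normalized reads against 5.99, 10.8 and 4.71 and rose 3.47-fold (limma adjusted p = 0.0127). Its call ended without KO-labelled retina 3 or wild-type retina 3 (limma adjusted p up to 0.0535), and 2 of its 3 wild-type values lay under the filter. Rtp4, a chaperone of receptors, rose 1.84-fold (limma adjusted p = 0.00838), and 13.6% of its 50-base stretches also occur in Gm45338. Xaf1, which promotes cell death, rose 1.47-fold (limma adjusted p = 0.0212) and was lost without KO-labelled retina 3 or wild-type retina 2 or 3 (up to 0.0955).

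Ifi27 and Ifi35 did not pass as higher. Ifi27, a mitochondrial protein, had 697, 486 and 702 normalized reads in the KO-labelled retinas and 966, 951 and 679 in wild type. The groups overlapped and the log2 fold change was -0.46 (95% confidence limits -0.83 to -0.09, limma adjusted p = 0.104). It was lower with DESeq2 (adjusted p = 0.0377) and without wild-type retina 3 (0.0499). Ifi35, a binding partner of Nmi, had a log2 fold change of 0.11 (95% confidence limits -0.18 to 0.40), whose sign turned without KO-labelled retina 1 (-0.01).

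ISG15 is a ubiquitin-like protein that is attached to other proteins, and USP18 removes it and also damps the interferon receptor. Of the 6 genes in this set with the ubiquitin ligases and ADP-ribosyl transferases, 5 rose and 0 fell, with a median log2 fold change of 1.10. Isg15 had 187, 174 and 150.1 normalized reads against 98.4, 103 and 96.0 and rose 1.72-fold (limma adjusted p = 0.00782). The rise of Usp18 was 2.28-fold, from 77.9, 85.5 and 99.8 to 181, 213 and 208 in retinas 1, 2 and 3 (log2 fold change 1.19, SE 0.17, limma adjusted p = 5.25e-04). The ratio of Usp18 to Isg15 overlapped between groups, at 0.964, 1.22 and 1.38 against 0.791, 0.832 and 1.04 (exact permutation p = 0.200, 0.200 adjusted over 6 pairs).

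The ADP-ribosyl transferases Parp9 and Parp14 and the ligase Dtx3l, which pairs with Parp9 in DNA repair and antiviral signalling, form a cluster on chromosome 16. Parp9 had 331, 312 and 284 normalized reads against 193, 137 and 135 and rose 1.99-fold (limma adjusted p = 0.00170). Dtx3l had 212, 258 and 194 against 117, 53.0 and 92.2 and rose 2.53-fold (limma adjusted p = 0.00356). Parp9 and Dtx3l are read from opposite strands with 557 bases between their RefSeq starts, their GENCODE models overlap, and 9.09% of the 50-base stretches of Parp9 occur in Dtx3l. The sources used here do not give the strand setting of the counting.

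Parp14, on the same chromosome, had 105, 178 and 126 normalized reads against 68.4, 48.7 and 52.7 and rose 2.41-fold (limma adjusted p = 0.00415). Trim25, the ligase that activates the RNA sensor RIG-I, did not pass, at 868, 1269 and 958 against 932, 885 and 945. KO-labelled retina 2 stood apart for Trim25, and the sign of the log2 fold change (0.15, 95% confidence limits -0.14 to 0.43) turned without it (-0.01).

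In class I antigen presentation, 4 of 9 genes rose, 5 did not pass and 0 fell, with a median log2 fold change of 0.39. The heavy chain gene H2-D1 (chromosome 17, 35263094 to 35267497) had 15172, 13956 and 16138 normalized reads in KO-labelled retinas 1, 2 and 3. In wild type it had 6721, 6601 and 6332. The groups were far apart beside their spread: H2-D1 rose 2.30-fold (log2 fold change 1.20, SE 0.07, limma adjusted p = 4.05e-07).

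Per kilobase of GENCODE exon, H2-D1 had the highest level of the 42 genes in both groups. On that scale H2-D1 went from 2540.2 to 5851 normalized reads, B2m from 2151 to 2839 and H2-K1 from 559 to 683. H2-D1 took 21.4% of the summed normalized reads of the 42 genes in wild type and 33.6% under the KO label. Of the gain in that sum, 59.6% was H2-D1.

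The other classical heavy chain gene, H2-K1 (chromosome 17, 33996012 to 34000619), had 1904, 1872 and 2243 normalized reads against 1766, 1650.5 and 1512. The groups did not overlap, but the difference did not pass (log2 fold change 0.29, 95% confidence limits 0.07 to 0.50, limma adjusted p = 0.0870). It passed with scaling to total reads (adjusted p = 0.0321) and weighted limma-voom (0.00307). The ratio of H2-D1 to H2-K1 within each library was 7.97, 7.46 and 7.19 under the KO label and 3.81, 4.0 and 4.19 in wild type, a log2 difference of 0.92 (exact permutation p = 0.100, the smallest possible; 0.12 adjusted over 6 pairs). Heavy chain genes share sequence and differ between strains. Of the 50-base stretches of H2-D1, 14.3% occur in other genes, 5.31% in H2-K1 and 7.40% in H2-Q1.

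B2m, the light chain of every class I molecule, had 2315, 2370.2 and 2639.6 normalized reads against 1806, 1986 and 1756 and rose 1.32-fold (limma adjusted p = 0.0118). Leaving out KO-labelled retina 3 or wild-type retina 3 ended the call (up to 0.0813). The ratio of H2-D1 to B2m was 6.55, 5.89 and 6.11 against 3.72, 3.32 and 3.61, without overlap (exact permutation p = 0.100, 0.12 adjusted over 6 pairs).

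Of the genes that supply peptides, Psmb8 rose. Psmb8, an immunoproteasome subunit that replaces Psmb5, had 456, 357 and 436 normalized reads against 308, 244 and 224 and rose 1.61-fold (limma adjusted p = 0.0118). It was lost without KO-labelled retina 3 or wild-type retina 3 (up to 0.0692). Psmb9, which replaces Psmb6, did not pass, at 123, 121 and 157 against 106, 106 and 91.3 (log2 fold change 0.39, 95% confidence limits 0.01 to 0.77). Weighted limma-voom placed it higher (adjusted p = 0.0218).

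Beside their standard counterparts, both immunoproteasome subunits took a larger part in every KO-labelled retina. The Psmb8 to Psmb5 ratio was 0.0960, 0.0802 and 0.0908 against 0.0585, 0.0470 and 0.0443, and the Psmb9 to Psmb6 ratio 0.0113, 0.0119 and 0.0141 against 0.00825, 0.00854 and 0.00714 (exact permutation p = 0.100 each, 0.12 adjusted over 6 pairs). The groups of both ratios did not overlap. Psmb9 itself did not pass and Psmb6 fell (given below), so the second ratio does not show a rise of Psmb9 alone.

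Tap1, Tap2 and Tapbp, of peptide transport and loading, did not pass. Tap1 and Tap2, the subunits of the peptide transporter, had log2 fold changes of 0.25 (95% confidence limits -0.04 to 0.54) and 0.27 (0.06 to 0.48). Tap2 passed with scaling to total reads (adjusted p = 0.0432), weighted limma-voom (0.00774) and without KO-labelled retina 2 (0.0430). Tapbp, the tapasin bridge between transporter and heavy chain, had 6347, 6141 and 6296 against 6689, 6339.9 and 6550.3 normalized reads (log2 fold change -0.06, 95% confidence limits -0.20 to 0.08). The groups overlapped, and 19.0% of the 50-base stretches of Tapbp occur in the antisense gene Gm19412. Psmb8, Psmb9, Tap1 and Tap2 lie together on chromosome 17, with 226 bases between the opposed starts of Psmb9 and Tap1 by RefSeq positions. The longer GENCODE models of Psmb9 and Tap1 overlap.

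Nlrc5, the transactivator of class I genes (chromosome 8, 94434335 to 94527272), had 46.3, 46.7 and 39.5 normalized reads in the KO-labelled retinas and 6.84, 3.25 and 22.6 in wild type. It rose 4.05-fold (log2 fold change 2.29, SE 0.52, limma adjusted p = 0.0134). Wild-type retina 3 lay well above the other wild-type retinas, and without it the rise was 8.75-fold. In 2 of 3 wild-type libraries Nlrc5 was under the filter, so it reached the test through the KO label.

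**Figure D4:**
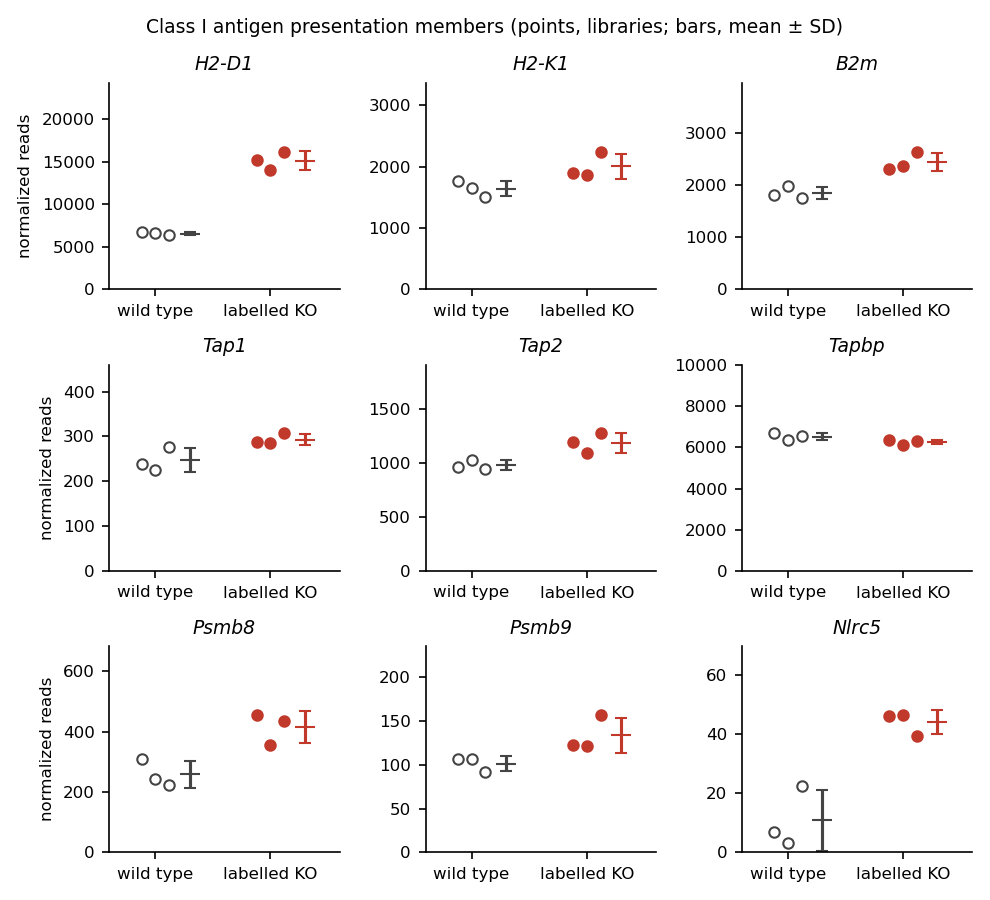
Normalized reads of the 9 class I antigen presentation genes, 1 panel each with an axis from 0; points are libraries and the bars beside them the mean ± SD of 3 retinas. H2-D1 lies at 13956 to 16138 under the KO label against 6332 to 6721 in wild type, while the Tapbp groups overlap.

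Which library was the highest was counted by role, over few genes each and without a test. KO-labelled retina 2 was the highest of its group for 3 of 4 sensors, 8 of 17 antiviral effectors and 4 of 6 genes of the ISG15 set, but for 1 of 9 class I genes. KO-labelled retina 3 was the highest for 6 of those 9. Over all tested genes, KO-labelled retinas 1, 2 and 3 were the highest in 35.0%, 37.4% and 27.5%. Among the wild-type retinas, retina 1 was the highest for 21 of the 40 tested genes (52.5%) and for 39.6% of all tested genes. Over the 40 tested genes the median coefficient of variation was 11.5% under the KO label and 10.6% in wild type, with the widest spread at Nlrc5 in wild type (94.4%).

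Interferon transcripts themselves were almost unread. The 21 interferon genes listed had 5 reads in the KO-labelled retinas and 6 in wild type in all. Scaled to total reads, the ratio was 0.948 (95% counting limits 0.229 and 3.73). Of the 21, 17 had 0 reads in every library, Ifnb1 among them, which allows up to 3 reads over the 6 libraries, counting error only. Ifng had 1 read, in wild type, and Ifnz, a relative of unclear role, had 4 and 4. A difference in ligand transcripts was not detectable at this depth.

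Of 15 receptor and JAK-STAT genes tested, 4 rose and 0 fell (2 lower at an unadjusted limma p under 0.05, 0 with DESeq2), against 6.79% of all tested genes, with a median log2 fold change of 0.24. Stat3, which carries signals of the IL-6 family, rose 2.14-fold (limma adjusted p = 2.24e-06), and its feedback inhibitor Socs3 rose 3.40-fold (mean ± SD of 1166 ± 227 normalized reads under the KO label and 343 ± 15.4 in wild type, n = 3 and 3; limma adjusted p = 4.96e-06). Ptpn6, a phosphatase of blood cells that dephosphorylates JAK kinases, rose 2.52-fold (limma adjusted p = 0.00320).

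Among sensing genes upstream of interferon, 2 of 17 rose and 0 fell, against 6.79% and 5.21% of all tested genes. The 11.8% that rose was near the share over all tested genes. Of the 17, 0 were lower at an unadjusted limma p under 0.05 or with DESeq2, and the median log2 fold change was 0.27. Ddx58, the RNA sensor RIG-I, rose 1.94-fold (limma adjusted p = 0.00408), and Irf5, a factor of macrophages, rose 2.49-fold (limma adjusted p = 5.78e-04). Tlr3, the endosomal receptor for double-stranded RNA, had a log2 fold change of 0.62 (limma adjusted p = 0.0791) and the adaptor Myd88 one of 0.31 (limma adjusted p = 0.0855). Tlr3 passed without KO-labelled retina 1 (0.0407), and Myd88 with scaling to total reads (0.0379) and weighted limma-voom (0.0191).

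Of 48 other interferon-stimulated genes tested, 18 rose and 0 fell, against 6.79% and 5.21% of all tested genes. Of the 48, 0 were lower at an unadjusted limma p under 0.05 or with DESeq2, and the median log2 fold change was 0.57. Ube2l6, the conjugating enzyme for ISG15, had 649, 639 and 679 normalized reads against 318, 327 and 325 and rose 2.03-fold (limma adjusted p = 4.83e-05). The guanylate-binding GTPases Gbp9 and Gbp2 rose 3.29-fold and 2.30-fold (limma adjusted p = 3.34e-04 and 3.50e-04), and Trim34a rose 2.85-fold (limma adjusted p = 0.00129). The chemokine Cxcl9 was listed at 0 in every library. Its relative Cxcl10, named after its values were seen, had 58.7, 7.26 and 40.4 normalized reads against 2.57, 2.16 and 1.88. KO-labelled retina 2 was far below the other two for Cxcl10, so it missed the filter and had no test here, and its adjusted p in the authors' deposited table was 2.34e-05. The count fell from 18 to 10 without KO-labelled retina 3 and to 9 at an adjusted p under 0.01.

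The remaining class I and proteasome genes gave 7 higher and 1 lower of 24 (median log2 fold change 0.14). Over all tested genes, 6.79% were higher and 5.21% lower. The nonclassical heavy chains H2-Q6 and H2-Q4 rose 3.68-fold and 3.56-fold (limma adjusted p = 1.35e-05 and 3.52e-04), Erap1, which trims peptides, 2.21-fold (limma adjusted p = 1.84e-04), and Pdia3, of the loading complex, 1.27-fold (limma adjusted p = 0.00641). The member that fell was Psmb6 (1.18-fold lower, limma adjusted p = 0.0309), named after its value was seen. The 8 calls became 5 without KO-labelled retina 3 or wild-type retina 2, and 4 without wild-type retina 3 or at an adjusted p under 0.01. H2-Q genes share sequence with H2-D1, and reads could be split between them.

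Class II antigen presentation, the task of professional antigen-presenting cells, gave no call in either direction. Of 7 tested, 0 rose and 0 fell by limma, with 2 lower at an unadjusted p under 0.05 (H2-Aa and Cd74) and 1 lower by DESeq2 (Cd74, adjusted p = 0.0436), and the median log2 fold change was -0.23. H2-Aa had 22.6, 19.7 and 20.2 normalized reads against 57.3, 33.6 and 32.9 (log2 fold change -0.91, limma adjusted p = 0.0696). Cd74, the invariant chain, had a log2 fold change of -0.60 (limma adjusted p = 0.126), H2-Eb1 -0.45 (0.303) and H2-Ab1 -0.23 (0.400). Cd74 was also lower with weighted limma-voom (adjusted p = 0.0194) and without KO-labelled retina 1 (0.0497) or wild-type retina 2 (0.0275). H2-Ea, which mice of the b haplotype such as C57BL/6 are known not to express, had 0 reads in all 6 libraries.

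Genes of the NF-kB pathway, which works beside interferon in inflammation, gave 5 higher and 1 lower of 11 (median log2 fold change 0.64). The shares over all tested genes were 6.79% and 5.21%. Nfkb1, a subunit of the factor, rose 4.08-fold (limma adjusted p = 1.20e-07), and its inhibitor Nfkbia 2.01-fold (limma adjusted p = 3.68e-06). Tnfaip3, the inhibitor A20, was 1.98-fold lower (limma adjusted p = 2.16e-05), and the adhesion molecule Vcam1 rose 1.69-fold (limma adjusted p = 6.64e-04). The share of each list that rose is plotted beside that of all tested genes.

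**Figure D5:**
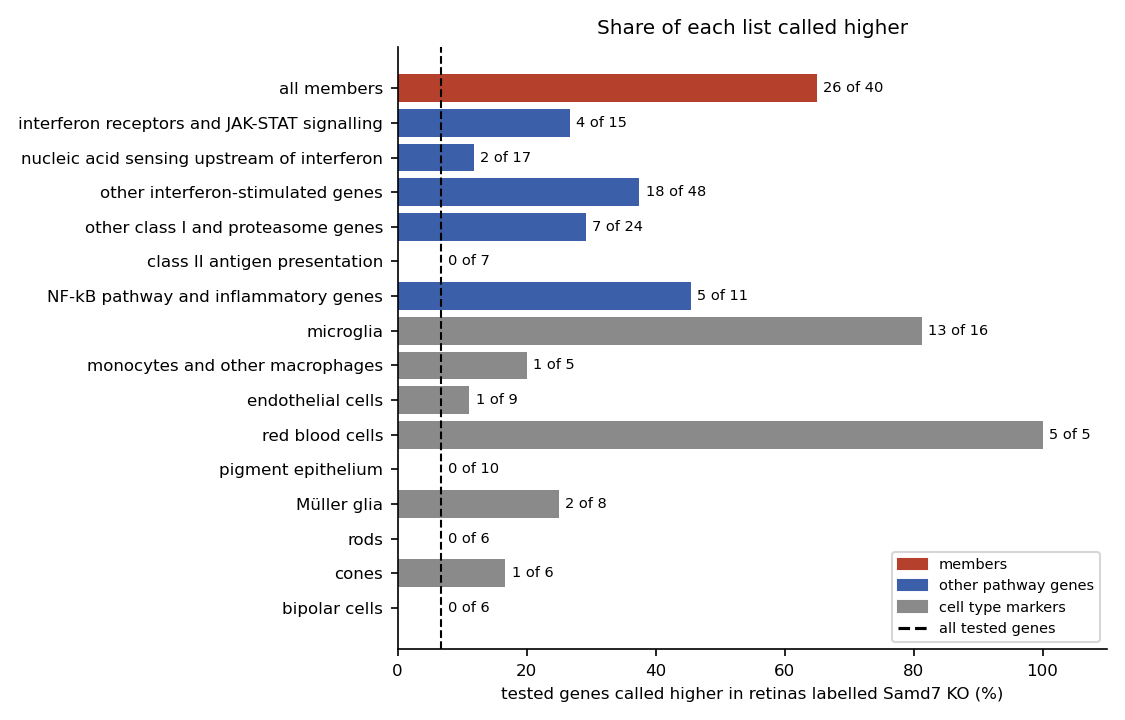
Percentage of the tested genes of each list that rose in the KO-labelled retinas (bars, with counts beside them), for lists with at least 5 tested genes; the dashed line is the share over all 20277 tested genes. The 40 genes described here reach 65.0%, microglia markers 81.2%, and class II genes 0.

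Among the immune cell lists, most microglia markers were higher in the KO-labelled retinas, while the other lists gave few or no calls. Of 16 microglia markers 13 rose and 0 fell, against 6.79% and 5.21% of all tested genes. The 13 became 8 without KO-labelled retina 3, and 8 at an adjusted p under 0.01. The summed level of the 16 was 7491 to 8286 normalized reads under the KO label and 5058 to 5529 in wild type. The 4 with the smallest p were Ctss (1.85-fold), Cx3cr1 (2.24-fold), Fcrls (2.26-fold) and C1qb (1.43-fold). Their part in the rise of the interferon and class I genes was not tested.

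Markers of T cells, natural killer cells and neutrophils were low or near the floor, while those of macrophages, given below, were not. The T cell receptor genes Trac, Trbc1 and Trbc2 had 0 reads in all libraries, as did the sensing gene Trex1. Whether such zeros come from the annotation or the counting was not tested. The 10 T cell markers summed to 67.7 to 105 normalized reads under the KO label against 112 to 124 in wild type. Tested T cell markers had log2 fold changes of -0.59 (Lck), -0.58 (Cd8a) and 0.29 (Cd4), and 0 passed by limma or DESeq2 (1, Lck, was lower at an unadjusted p under 0.05). Natural killer markers summed to 0.962 to 3.11 against 0 to 9.74, with Ncr1 and Gzma at 0, and neutrophil markers to 3.85 to 12.4 against 5.13 to 11.9, with Elane and Retnlg at 0.

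B cell markers summed to 16.6 to 42.9 against 28.2 to 64.0, and the log2 fold change of Cd79a (-0.75) did not pass. Of 3 plasmacytoid dendritic cell markers tested, a cell type that makes much interferon, 0 passed by limma or DESeq2, with 1, Siglech, higher at an unadjusted p under 0.05. Siglech, which microglia also express, had a log2 fold change of 0.44, and Klk1 was listed at 0. Those of the other two were Cox6a2 -0.63 and Ccr9 0.01, whose sign turned with upper-quartile scaling and without KO-labelled retina 2 or 3 or wild-type retina 3. Of 5 tested markers of monocytes and other macrophages, Mrc1 rose 2.85-fold (limma adjusted p = 0.0111). The log2 fold changes of Ms4a7 (1.09), Pf4 (0.69) and Lyve1 (0.05) did not pass. The 7 macrophage markers listed summed to 958 to 1069 normalized reads under the KO label against 886 to 972 in wild type. The 4 plasmacytoid dendritic cell markers summed to 192 to 217 against 162 to 196.

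Endothelial markers, of cells that carry much class I protein, gave 1 higher and 1 lower of 9 (Kdr 1.79-fold higher, Ly6c1 1.46-fold lower, the latter lost without wild-type retina 3 at 0.0609). Over all tested genes 6.79% rose and 5.21% fell, so 1 of 9 in each direction was near those shares. The summed level of the endothelial markers was 9099 to 10204 against 7535 to 9034. Red blood cell markers rose in 5 of 5 and summed to 5661 to 8293 against 1467 to 2232, and pigment epithelium markers fell in 7 of 10, at 1887 to 2791 against 4580.2 to 7128. The part of these cell types in the interferon and class I results was not tested.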

How the data were processed

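Polyadenylated RNA of 6 mouse retinas was sequenced and the series held 1 table of 49997 genes. The tools, per the submitters' processing notes, were STAR 2.7.3a, HTSeq 0.12.4, cutadapt 3.0, DRAGEN, SAMtools 1.9 and DESeq2, and the build GRCm38 (mm10). The sources used here do not give the strand setting of the counting. The deposited signal values are gene reads divided by a size factor per library by the authors, and all came out as whole reads (tolerance 0.01). The log2 fold changes, p-values and Wald score columns were deposited by the authors from DESeq2, and the fold changes and p-values were used for comparison only.

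Here, log2(value + 1) was tested with limma-trend 3.58.1 in R 4.3.3 over genes that reached 10 normalized reads in 3 or more libraries, with Benjamini-Hochberg adjustment and calls at 0.05. Libraries of 44231112 to 62813549 reads entered, 3 per group. Counting intervals are exact at 95% and cover counting error only, since no molecular identifiers are described. The read ratios given with them are scaled to total reads, not to size factors. Exon lengths, overlaps and shared 50-base stretches are from GENCODE on GRCm38, and gene positions, distances between starts and promoters from RefSeq GRCm38.p6. Alternatives were edgeR 4.0.16, DESeq2 1.42.0, limma-voom with sample quality weights, other pseudocounts, filters, scalings and thresholds, a replicate block and each library left out. The test was also tried on simulated data, with means and spreads taken from these libraries.

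The 42 genes and all lists were chosen with earlier results of these data known. Of the 42, all are described. From each other pathway list, and from the microglia, macrophage, T cell, B cell, plasmacytoid dendritic cell and endothelial lists, up to 4 genes with the smallest adjusted p are named, apart from items not reported here, and genes outside this rule were named after their values were seen.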

Additional observations from a re-analysis of the deposited data

How the results depend on the processing

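Of 1430 alternative values over 85 named genes, 1339 kept their direction and their side of the threshold, 54 lost the call, 28 gained one and 9 changed sign. With 26 genes of the set changed as reported, the other scalings, pseudocounts, filters and tools gave 23 to 32, and an adjusted p under 0.01 gave 14. Leaving out each library gave 18 to 26. The count lower, 0 as reported, was 1 with upper-quartile scaling, 2 with DESeq2, 1 with limma-voom with sample quality weights (weighted limma-voom), and 0 to 1 with a library left out. Other pathway genes changed fell from 38 to 25 at 0.01. All tested genes changed, 2432 as reported, were 4650 with weighted limma-voom, 1189 at 0.01 and 1313 to 3247 with a library left out, lowest without wild-type retina 3 and highest without KO-labelled retina 1. The cause was not tested.

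The replicate numbers did not pair the libraries: correlations of same-numbered deviations were -0.18, -0.13 and -0.01, and 0 of 6 libraries correlated best with its own number. With the replicate block, 1624 of all genes, 22 of the set and 30 other pathway genes changed.

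The log2 fold change of 5 genes that did not pass turned sign. Ifi35 ran from -0.0145 (without KO-labelled retina 1) to 0.2229, Trim25 from -0.0138 (without KO-labelled retina 2) to 0.2601 and Cd4 from -0.0008 (without wild-type retina 2) to 0.6609. Lyve1 was -0.0154 with weighted limma-voom and -0.0019 to 0.0793 with a library left out. Ccr9 was -0.0233 with upper-quartile scaling and -0.1844 to 0.2331 with a library left out, and also negative without KO-labelled retina 3 (-0.0143) and wild-type retina 3 (-0.047). For the low genes Mx1 and Oas2, depth limits any comparison to the read ratios given.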
